A study of Mus musculus with 16 samples.

Results

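The genes described here are 41 Polycomb, remodelling and histone-modifying genes, chosen by name from the 20325 gene names of the mouse expression tables. All 41 were found in each of the 13 RNA libraries. They fall into 6 groups by role. PRC2 has 7 (Ezh1, Ezh2, Eed, Suz12, Jarid2, Rbbp4 and Rbbp7) and PRC1 has 6 (Bmi1, Ring1, Rnf2, Cbx2, Cbx7 and Kdm2b). The corepressors and deacetylases number 7 (Rcor1, Rcor2, Kdm1a, Hdac1, Hdac2, Mbd3 and Chd4), and the BAF and other remodelling genes number 9 (Smarca4, Smarca2, Smarcb1, Smarcc1, Smarcc2, Smarcd1, Arid1a, Arid3b and Chd1). There are 4 histone demethylases (Kdm6a, Kdm6b, Kdm5b and Kdm4c) and 8 histone methyltransferases and partners (Setdb1, Dot1l, Ehmt1, Ehmt2, Wdr5, Ash2l, Suv39h1 and Suv39h2).

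The study asked how the AP-1 subunit c-Jun drives embryonic stem cells (ESC) to differentiate, and how c-Jun, c-JunDN and Jdp2 act when fibroblasts are reprogrammed. All RNA libraries came from OG2 transgenic mice of a mixed 129SVJ, C57B6 and CBA strain background. The ESC groups, at passage 5, were a TetOn c-Jun line with doxycycline for 36 h, the same line without doxycycline, and wild-type (WT) ESC. The fibroblast groups (mouse embryonic fibroblasts, MEF, passage 2) overexpressed c-Jun, c-JunDN, Jdp2, Oct4 or DR, or were WT MEF. A further set was MEF that received Klf4, Sox2 and c-Myc (KSM) together with Oct4, c-JunDN, Jdp2 or DR, taken on day 3. Jdp2 is a repressor that pairs with Jun proteins, and DN commonly stands for dominant negative. DR is not explained in the labels and was taken as the control of its set. All 4 KSM groups, DR included, carry Klf4, Sox2 and c-Myc. The labels do not say how many clones the TetOn line represents, how long the factors were expressed in MEF, or how many embryos were pooled.

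Each group is 1 library, so no difference below has a replicate check and no p-value is given. Libraries other than WT held 1838855 to 3440917 expected counts, while WT ESC held 12173100 and WT MEF 21415021. The lowest total is that of MEF with Oct4, counted only over gene names shared with the other libraries. Intervals cover counting error only, and a count of 3 stood for 0.835 to 1.5 CPM outside the WT libraries. CPM are counts scaled to library size by TMM, and they compare 1 gene between libraries. Genes under 5 CPM on both sides of a comparison count as not measured, and the others are called higher or lower where the log2 ratio of CPM plus 1 reached 2-fold. Jun, read as a check of the labels, reached 2015 CPM in cells given doxycycline and 21.2 CPM in the uninduced cells, and 11960 CPM in the MEF c-Jun library, where DR had 88.5 CPM. Pluripotency markers were at 5 CPM or more for 10 of 10 genes in all 3 ESC libraries, and their summed level was 1220 CPM with doxycycline, 6614 CPM without it and 5264 CPM in WT ESC. Fibroblast markers summed to 1817 to 3213 CPM in the KSM libraries and to 19560 to 78960 CPM in MEF. In these bulk samples, fewer cells of a type and less RNA per cell cannot be told apart.

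Polycomb repressive complex 2 (PRC2) methylates histone H3 at lysine 27, and PRC1 ubiquitinates histone H2A; together they keep developmental genes silent in stem cells. The BAF complex slides and evicts nucleosomes, and its subunit makeup differs between stem cells and differentiated cells. CoREST couples the demethylase Kdm1a to deacetylases, NuRD couples the Chd4 remodeller to deacetylases, and enzymes of the Suv39h and Ehmt families and Setdb1 place methyl groups on lysine 9 of histone H3. In fibroblast reprogramming several of these proteins are known both as barriers and as aids.

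Promoter sequences were available from RefSeq (GRCm38.p6) for 36 of the 41 genes, in 46 windows from 250 bases before to 50 bases after a start site. A set of 3 textbook motifs were looked for on both strands, and they do not overlap in their letters: the AP-1 site TGACTCA, bound by dimers of Jun and Fos proteins, the CRE site TGACGTCA, bound by ATF and CREB proteins and by Jun or Jdp2 dimers with ATF proteins, and the E2F sites TTTCCCGC and TTTGGCGC of many cell cycle genes. The AP-1 site was in 5.2% of all 32851 windows and in 2 of the 46 windows here, those of Smarca2 and Smarcb1. The CRE site was in 1.79% of all windows and in 1 of the 46, that of Suv39h2. An E2F site was in 1.56% of all windows and in 4 of the 46, those of Ezh2, Suz12, Smarcd1 and Arid1a. A match describes letters in a window and is not a shown binding site. The 250 bases before the start are given for Rcor2, the gene with the largest change in induced ESC and in KSM cells against MEF, which held none of the motifs, for Suz12 and Smarcd1 with an E2F site, and for Suv39h2 with the CRE site; each motif is in capitals.
Rcor2 (chr19:7267144-7267393, plus strand): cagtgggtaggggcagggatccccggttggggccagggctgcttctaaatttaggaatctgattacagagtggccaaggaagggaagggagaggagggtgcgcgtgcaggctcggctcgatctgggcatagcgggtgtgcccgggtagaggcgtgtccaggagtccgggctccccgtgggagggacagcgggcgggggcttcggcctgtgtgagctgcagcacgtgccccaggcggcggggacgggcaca
Suz12 (chr11:79992856-79993105, plus strand): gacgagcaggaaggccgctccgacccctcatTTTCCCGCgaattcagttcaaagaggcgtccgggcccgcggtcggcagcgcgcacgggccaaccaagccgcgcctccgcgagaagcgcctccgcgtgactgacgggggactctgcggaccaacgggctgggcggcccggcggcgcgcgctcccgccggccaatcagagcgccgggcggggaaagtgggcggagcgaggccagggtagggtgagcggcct
Smarcd1 (chr15:99702037-99702286, plus strand): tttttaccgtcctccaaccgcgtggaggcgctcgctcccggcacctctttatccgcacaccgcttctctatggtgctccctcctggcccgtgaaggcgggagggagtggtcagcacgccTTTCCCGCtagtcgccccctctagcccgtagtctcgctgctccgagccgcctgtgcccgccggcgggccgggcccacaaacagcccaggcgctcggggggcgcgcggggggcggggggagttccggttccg
Suv39h2 (chr2:3474987-3475236, minus strand): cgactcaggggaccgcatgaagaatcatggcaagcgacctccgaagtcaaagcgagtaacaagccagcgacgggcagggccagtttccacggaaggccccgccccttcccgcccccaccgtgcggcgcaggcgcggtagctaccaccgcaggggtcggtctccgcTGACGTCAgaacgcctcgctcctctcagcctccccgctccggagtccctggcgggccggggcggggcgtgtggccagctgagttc
The coordinates belong to GRCm38.p6, and the expression tables were made on mm9, so these windows carry no coordinate from the tables. The site began 219 bases before the start in Suz12, 131 before in Smarcd1 and 85 before in Suv39h2.

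The first comparison set WT MEF against WT ESC, to see which of the genes belong to which starting cell. Of the 41 genes, 23 were lower in WT MEF and 3 were higher. Over all genes measured, 29.4% were lower and 24.3% were higher. The median log2 change of the 41 was -1.08, against -0.19 for all genes. The highest levels per transcript length (TPM, which compares genes within a library) were those of Rbbp7 at 280.5 TPM, Chd4 at 229.6 TPM and Hdac1 at 197 TPM in WT MEF. In WT ESC they were those of Hdac1 at 404 TPM, Wdr5 at 325 TPM and Suz12 at 276 TPM. The count of lower members depends on the scaling. With DESeq2 size factors 18 were lower and 3 higher, where 26.2% of all genes were lower and 26.5% higher. On TPM 18 were lower and 3 higher, beside 26.5% lower and 25.9% higher over all genes. Ezh1, Rbbp4, Kdm1a, Chd1 and Dot1l were not called on either.

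**Figure D1:**
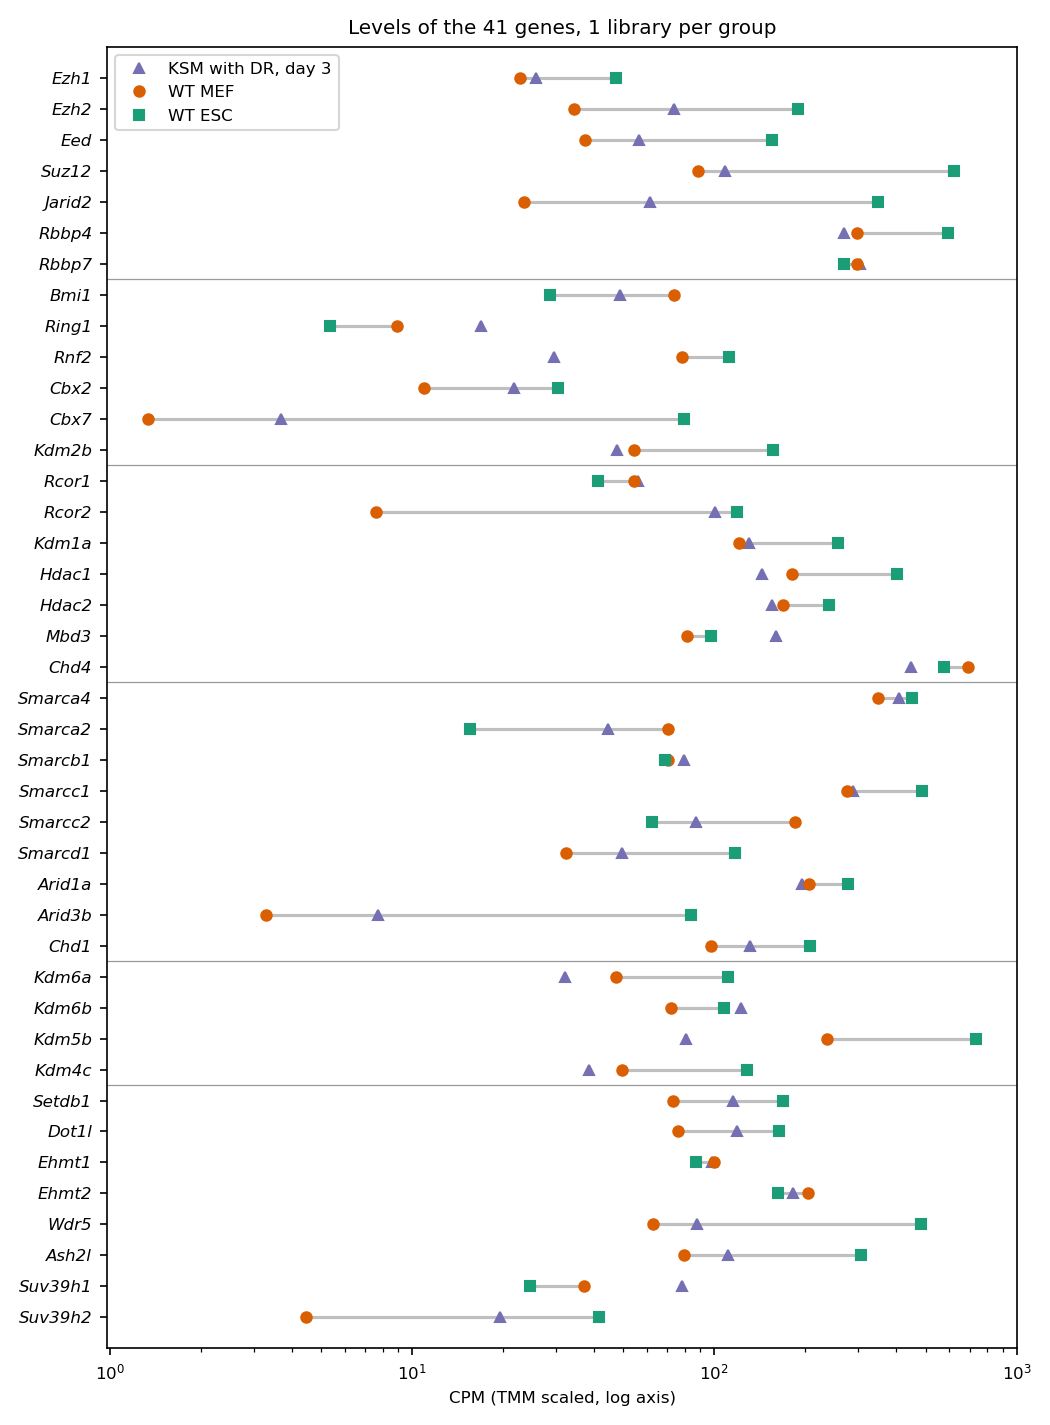
CPM of the 41 genes on a log axis in KSM with DR on day 3 (triangles), WT MEF (circles) and WT ESC (squares), with genes grouped by role and 1 library per symbol; the grey bar joins the WT libraries. Cbx7, Arid3b, Jarid2 and Rcor2 show the widest gaps between the WT libraries, and Rcor2 in KSM cells sits near WT ESC.

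Among PRC2 genes, 6 of 7 were lower in WT MEF. Jarid2, a DNA-binding partner that recruits PRC2, had 23.5 CPM in WT MEF and 348 CPM in WT ESC, 14.8-fold lower (95% interval 13.3 to 16.5). Suz12, the scaffold subunit, had 88.6 CPM in WT MEF and 620.5 CPM in WT ESC, and Ezh2, the main methyltransferase of dividing cells, had 34.4 CPM in WT MEF and 189 CPM in WT ESC. Eed had 37.5 CPM in WT MEF and 155 CPM in WT ESC. Ezh1 was 2.09-fold lower and Rbbp4, a histone-binding subunit, 2.00-fold lower, so both lay near the 2-fold threshold. The exception was Rbbp7, a histone-binding subunit also found in deacetylase complexes, with 298 CPM in WT MEF and 269 CPM in WT ESC.

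In PRC1 the largest gap was that of Cbx7, the chromodomain reader that is the main Cbx protein of stem cells. It had 1.34 CPM in WT MEF and 79.5 CPM in WT ESC, 59.3-fold lower (38.9 to 95.2). Cbx2, another chromodomain reader, had 11.0 CPM in WT MEF and 30.5 CPM in WT ESC. Kdm2b, which brings a variant PRC1 to CpG islands, had 54.4 CPM in WT MEF and 156 CPM in WT ESC. Bmi1, a partner of the Ring proteins, went the other way, with 73.4 CPM in WT MEF and 28.6 CPM in WT ESC. The ubiquitin ligases Ring1 and Rnf2 were not called.

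Rcor2, the CoREST scaffold that is prominent in stem cells, was 15.6-fold lower (13.0 to 18.9), with 7.62 CPM in WT MEF and 119 CPM in WT ESC. Its relative Rcor1 had 54.2 CPM in WT MEF and 41.2 CPM in WT ESC and was not called. Kdm1a was 2.12-fold lower, Hdac1, whose counts may be shared with an annotated pseudogene, was 2.23-fold lower, and Hdac2, Mbd3 and Chd4 were not called. Of the BAF genes, the ATPase Smarca2 (Brm) was 4.53-fold higher in WT MEF, at 70.2 CPM there against 15.5 CPM in WT ESC, and the core subunit Smarcc2 was 2.97-fold higher, at 185 CPM in WT MEF against 62.3 CPM in WT ESC. Smarcd1, a core BAF subunit, Arid3b, a DNA-binding protein with an ARID domain, and the remodeller Chd1 were lower. Arid3b had 3.29 CPM in WT MEF and 84.0 CPM in WT ESC, 25.5-fold lower (19.4 to 34.2). Smarcd1 was 3.61-fold and Chd1 2.13-fold lower. Smarca4, Smarcb1, Smarcc1 and Arid1a stayed within 2-fold.

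Of the demethylases, Kdm5b (H3 lysine 4), Kdm4c (lysine 9) and Kdm6a (lysine 27) were lower, by 3.12-fold, 2.59-fold and 2.34-fold, and Kdm6b was not called. Of the methyltransferases and partners, 5 of 8 were lower. Wdr5, a core subunit of H3 lysine 4 methyltransferases, had 62.6 CPM in WT MEF and 481.5 CPM in WT ESC, 7.69-fold lower. Suv39h2 had 4.45 CPM in WT MEF and 41.6 CPM in WT ESC, 9.35-fold lower, while Suv39h1, Ehmt1 and Ehmt2 were not called. Cell cycle genes moved with this result: 26 of 27 in the list were lower, with a median log2 change of -2.26 and summed levels of 1593 CPM in WT MEF and 8240 CPM in WT ESC. Their part in the result was not tested.

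The next comparison set KSM with DR on day 3 against MEF with DR. Of 40 genes measured, 10 were higher and 2 lower in KSM cells. Over all genes 18.1% were higher and 20.1% lower, and the medians were 0.57 for the members and 0.04 for all genes. The widest difference was that of Rcor2. It had 80.4 to 125 CPM in the 4 KSM libraries and 2.46 to 15.0 CPM in the 6 MEF libraries, and it was 16.0-fold higher in KSM with DR than in MEF with DR (9.23 to 30.5), at 101 CPM in KSM with DR against 6.29 CPM in MEF with DR. The ranges did not overlap, but how often this holds over all genes was not counted. Suv39h2 and Suv39h1, which methylate H3 lysine 9 in heterochromatin, were 4.48-fold and 3.75-fold higher. Suv39h2 had 19.5 CPM in KSM with DR and 4.35 CPM in MEF with DR, and Suv39h1 had 78.0 CPM in KSM with DR and 20.8 CPM in MEF with DR. In PRC2, Jarid2 was 3.51-fold higher, at 61.1 CPM in KSM with DR and 17.4 CPM in MEF with DR. Suz12 and Ezh2 were higher by 2.63-fold and 2.42-fold, and Eed, at 56.3 CPM in KSM with DR and 31.9 CPM in MEF with DR, was not called. Ash2l, the Wdr5 partner, at 2.52-fold, Cbx2 at 2.36-fold, Smarcc1 at 2.09-fold and Chd1 at 2.06-fold completed the 10. On TPM 8 were higher and 3 lower.

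The genes lower in KSM, Smarca2 and Smarcc2, were also among the 3 that were higher in WT MEF than in WT ESC. Smarca2 had 44.5 CPM in KSM with DR and 93.8 CPM in MEF with DR, and Smarcc2 had 86.9 CPM in KSM with DR and 202 CPM in MEF with DR. Cbx7 was at 3.68 CPM in KSM cells, against 3.39 CPM in MEF with DR, and was not measured. Cell cycle genes were higher as well, 25 of 27, with a median of 1.76. Fibroblast markers were lower, 10 of 10, with a median of -4.75. The part of either in the result was not tested.

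The comparison of c-Jun in stem cells set induced against uninduced cells of the TetOn line. Of the 41 genes, all measured, 12 were lower and 5 higher with doxycycline. Over all genes, 18.9% were lower and 21.5% were higher. The median log2 change was -0.60 for the members and -0.07 for all genes, and 30 of 41 members lay below the median of all genes. By role, 4 of 7 PRC2 genes, 2 of 4 demethylases and 3 of 8 methyltransferases and partners were lower, and 1 gene was lower in each of the other groups. On the authors' TPM the median of all genes moved by 0.36 on the log2 scale, and 6 members were lower and 6 higher, where 10.4% of all genes were lower and 27.6% higher. Ezh2, Jarid2, Kdm2b, Rcor2, Smarcd1 and Kdm4c were lower on every scaling tried. Against the uninduced line, the members' median stayed below that of all genes on TPM, by -0.51 against -0.53 on TMM. Against WT ESC the members' median was -0.25, and that of all genes moved by -0.14 from -0.07. The size of the gap therefore depends on the control. The uninduced line itself had a member median of 0.13 over WT ESC, beside -0.18 for all genes.

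**Figure D2:**
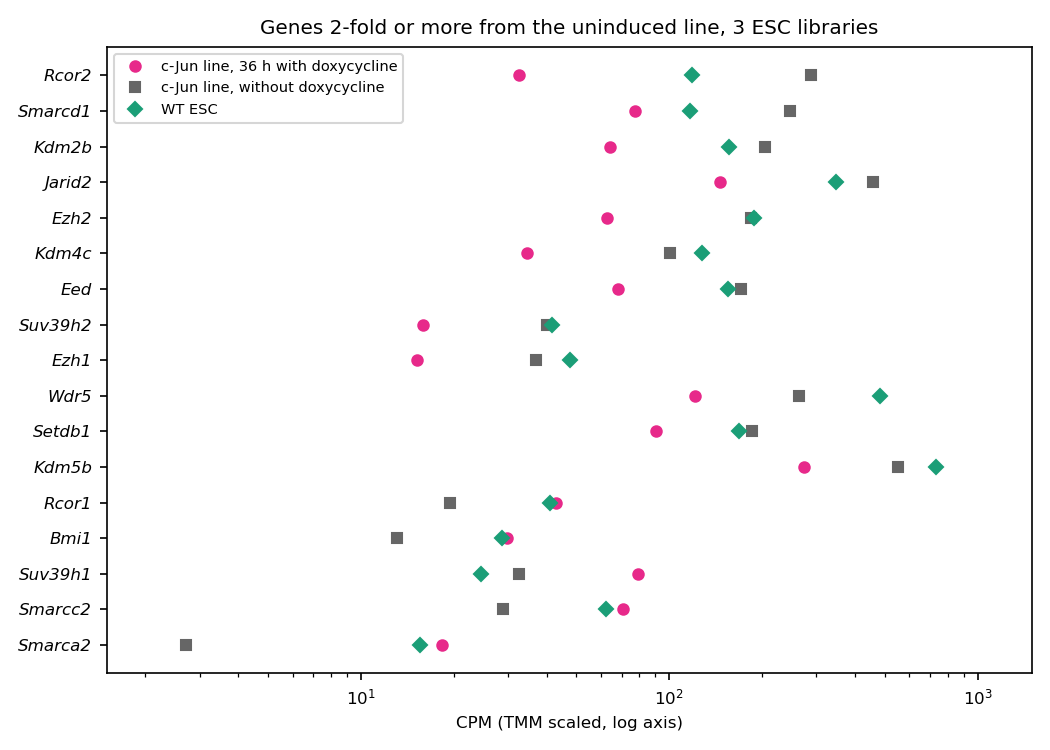
CPM on a log axis of the 17 genes called between induced and uninduced cells of the c-Jun line, in the induced library (circles), the uninduced library (squares) and WT ESC (diamonds), 1 library each, from most lowered at the top to most raised at the bottom. For Rcor1, Bmi1, Smarcc2 and Smarca2 the induced library sits beside WT ESC and the uninduced one stands apart to the left.

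Among PRC2 genes, Jarid2 had 146 CPM with doxycycline, 458 CPM without it and 348 CPM in WT ESC, and was 3.14-fold lower than in uninduced cells (95% interval 2.80 to 3.52). Ezh2 had 63.0 CPM with doxycycline, 183 CPM without it and 189 CPM in WT ESC. Eed, the subunit that reads trimethylated lysine 27, had 68.1 CPM with, 170.3 CPM without and 155 CPM in WT ESC. The induced library was the lowest for each, and the controls lay close together for Ezh2 and Eed. Ezh1, the second methyltransferase of the complex, had 15.25 CPM with doxycycline, 37.0 CPM without and 47.5 CPM in WT ESC. Suz12, at 205 CPM with, 382 CPM without and 620.5 CPM in WT ESC, and Rbbp4, at 392 CPM with, 673 CPM without and 593 CPM in WT ESC, were not called against the uninduced line. Rbbp7 was highest in the induced cells, at 612 CPM, against 498 CPM without doxycycline and 269 CPM in WT ESC.

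In PRC1, Kdm2b was 3.18-fold lower (2.68 to 3.79), with 64.0 CPM in induced cells, 204 CPM in uninduced cells and 156 CPM in WT ESC. Bmi1 was called higher, at 29.8 CPM with doxycycline against 13.1 CPM without it, but WT ESC had 28.6 CPM. The uninduced library was therefore the one apart. Rnf2 was even across the set, at 108 CPM with, 111 CPM without and 111.5 CPM in WT ESC. Cbx7 had 206 CPM with and 239.5 CPM without doxycycline, both above the 79.5 CPM of WT ESC, and Ring1 and Cbx2 were not called.

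Rcor2 was the most lowered member, 8.86-fold (7.14 to 11.1). It had 32.5 CPM with doxycycline, 288 CPM without it and 119 CPM in WT ESC, so induced cells were below both controls, which themselves differed 2.43-fold. Rcor1 had 43.0 CPM with doxycycline, 19.4 CPM without it and 41.2 CPM in WT ESC, and was called higher against the uninduced cells only. Kdm1a, the demethylase that both scaffolds bind, had 217 CPM with, 329.8 CPM without and 256 CPM in WT ESC and was not called. Hdac1, Hdac2, Mbd3 and Chd4 were not called either, with log2 changes of -0.75 to -0.29.

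The group of BAF and other remodelling genes split. Smarcd1 had 77.3 CPM with doxycycline, 246 CPM without it and 117 CPM in WT ESC, and was called against the uninduced cells only. Smarca2 had 18.3 CPM with doxycycline, 2.71 CPM without it and 15.5 CPM in WT ESC, with 54 counts in the induced library and 6 in the uninduced one, a 6.75-fold difference with a wide interval (2.91 to 19.2). Smarcc2 had 70.8 CPM with doxycycline, 28.9 CPM without it and 62.3 CPM in WT ESC. For Smarca2 and Smarcc2 the induced library was close to WT ESC, and the uninduced library was low. The rest, Smarca4, Smarcb1, Smarcc1, Arid1a, Arid3b and Chd1, had log2 changes of -0.96 to 0.80 and were not called.

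Of the demethylases, Kdm4c had 34.6 CPM with doxycycline, 100.3 CPM without it and 128 CPM in WT ESC, and Kdm5b had 273 CPM with, 553 CPM without and 734 CPM in WT ESC. Both were below both controls, and Kdm6a and Kdm6b were not called against the uninduced line. The Suv39h enzymes moved apart. Suv39h1 had 79.3 CPM with doxycycline, 32.5 CPM without it and 24.6 CPM in WT ESC, 2.44-fold higher than in uninduced cells (1.86 to 3.22). Suv39h2 had 15.9 CPM with, 40.2 CPM without and 41.6 CPM in WT ESC, 2.52-fold lower (1.75 to 3.67). Wdr5 had 121 CPM with, 262 CPM without and 481.5 CPM in WT ESC. Setdb1, at 90.5 CPM with, 186 CPM without and 168 CPM in WT ESC, was called against the uninduced cells only. Dot1l, Ehmt1, Ehmt2 and Ash2l were not called.

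The uninduced line itself differed from WT ESC. Of the 41 genes, 5 were higher in it (Cbx7, Rcor2, Mbd3, Smarcb1 and Smarcd1) and 5 lower (Bmi1, Rcor1, Smarca2, Smarcc2 and Kdm6b), where 6.17% of all genes were higher and 18.3% lower. This split depends on the scaling: with DESeq2 size factors 7 were higher and 2 lower, and on TPM 2 were higher and 6 lower. Fibroblast markers summed to 1590 CPM in the uninduced line, 1566 CPM of it from Fn1, and to 4358 CPM in WT ESC; their part in the differences was not tested. Set against WT ESC instead, the induced library had 15 members lower and 4 higher (Suv39h1, Rbbp7, Cbx7 and Arid3b), where 22.6% of all genes were lower and 14.6% higher. Against both controls at once, 10 members were lower (Ezh1, Ezh2, Eed, Jarid2, Kdm2b, Rcor2, Kdm5b, Kdm4c, Wdr5 and Suv39h2) and 1 higher (Suv39h1), where 11.3% of all genes were lower and 12.3% higher. All 27 cell cycle genes had a negative change against the uninduced line and 21 were called lower, with a median of -1.25, and all 10 pluripotency markers were called lower. Of 6 fibroblast markers measured, 3 were higher and 1 lower, and the list summed to 1113 CPM with doxycycline and 1590 CPM without it. Col1a1 had 471 CPM with doxycycline, 6.33 CPM without it and 441 CPM in WT ESC. Both macrophage markers measured were higher, Csf1r at 74.6 CPM with doxycycline and 0 CPM without it, and Cd68 at 36.3 CPM with and 11.3 CPM without. Of the 10 macrophage markers, 7 were at 0 in the induced library and 8 in the uninduced one, Ptprc, Lyz2 and C1qa at 0 in both. The part of these lists in the members' changes was not tested.

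**Figure D3:**
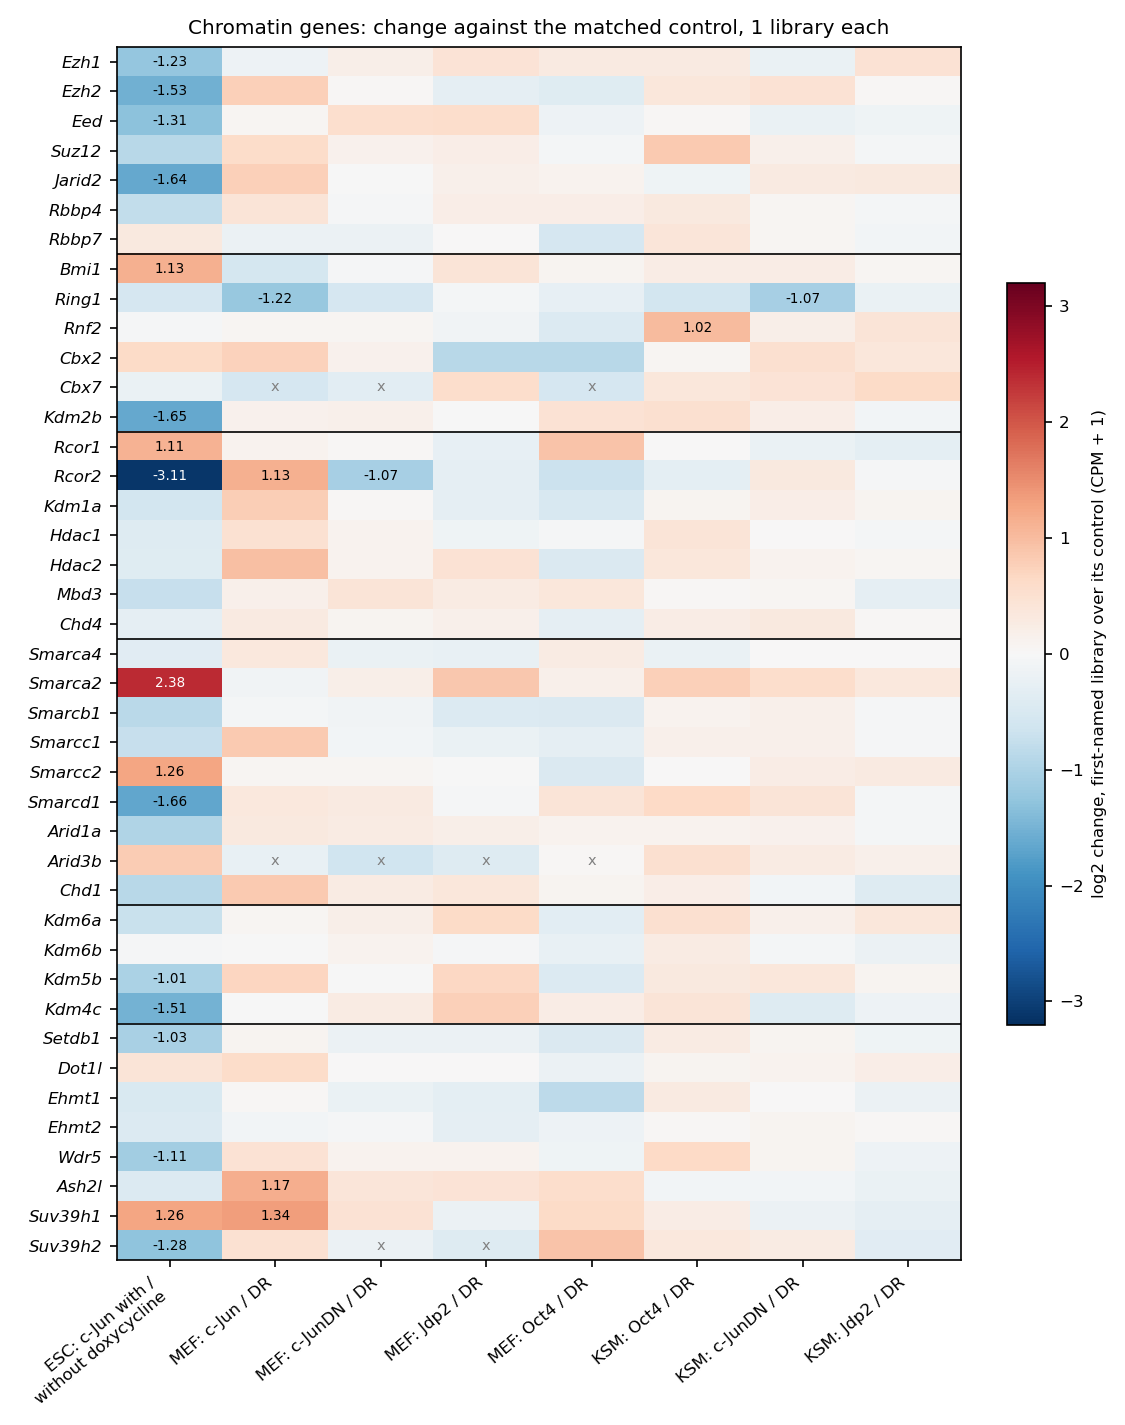
Log2 change (CPM plus 1) of the 41 genes in the 8 comparisons with a matched control, 1 library on each side; rows are grouped by role, printed values are the 24 changes of 2-fold or more, and an x marks a gene under 5 CPM in both libraries. The ESC column holds 17 of the printed values.

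Over the 8 matched comparisons there were 24 calls, of which the ESC comparison gave 17. Calls over all genes were also most frequent there, at 21.5% higher and 18.9% lower. In the 4 MEF comparisons 3.25% to 11.5% of all genes were higher and 2.71% to 10.1% lower, and in the 3 KSM comparisons 1.81% to 4.65% were higher and 1.31% to 6.67% lower, so nothing particular to the members is read from the count. In all, 20 genes were called at least once, 17 of them in 1 comparison and 3 (Rcor2, Ring1 and Suv39h1) in more. Of the 21 never called, Suz12, Rbbp4, Rbbp7, Cbx2, Cbx7, Kdm1a, Hdac1, Hdac2, Mbd3, Chd4, Smarca4, Smarcb1, Smarcc1, Arid1a, Arid3b, Chd1, Kdm6a, Kdm6b, Dot1l, Ehmt1 and Ehmt2, the extreme log2 changes were -0.96 for Arid1a in ESC and 0.95 for Hdac2 in MEF with c-Jun. Cbx7, Arid3b and Suv39h2 were under 5 CPM in both libraries of some MEF comparisons.

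With c-Jun in MEF, 3 of 39 measured members were higher and 1 lower than with DR, where 7.75% of all genes were higher and 9.54% lower. Against DR the median was 0.31 for the members and 0.00 for all genes, and 30 of the 39 had a positive change. Against WT MEF the member median was -0.03, and that of all genes moved by -0.08. MEF with DR itself had a member median of -0.38 over WT MEF, beside -0.11 for all genes, with 31 of 38 members negative. Suv39h1 had 54.0 CPM with c-Jun, 20.8 CPM with DR and 37.1 CPM in WT MEF. Ash2l had 100.0 CPM with c-Jun, 44.0 CPM with DR and 79.2 CPM in WT MEF. Rcor2 had 15.0 CPM with c-Jun, 6.29 CPM with DR and 7.62 CPM in WT MEF, from 30, 13 and 125 counts. Ring1 had 7.498 CPM with c-Jun, 18.9 CPM with DR and 8.90 CPM in WT MEF. It had 12.7 CPM with c-JunDN, 18.0 CPM with Jdp2 and 15.5 CPM with Oct4, so c-Jun and WT MEF were the lowest MEF libraries. None of these 4 was called against WT MEF. Beside this, the cell cycle list had a median of 0.45 against DR. Of the 10 fibroblast markers, 6 were lower and 9 had a negative change, with a median of -1.34 and summed levels of 19560 CPM with c-Jun and 47560 CPM with DR. Of 2 macrophage markers measured, Csf1r was higher, at 73.0 CPM with c-Jun and 4.35 CPM with DR, and Lyz2 lower. The part of these lists was not tested.

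With c-JunDN in MEF, none of 38 measured members was higher and 1 was lower, where 3.25% of all genes were higher and 2.71% lower. The gene was Rcor2, at 2.46 CPM with c-JunDN, 6.29 CPM with DR and 7.62 CPM in WT MEF. It rests on 6 counts against 13, and its interval of 0.122 to 1.104 for the ratio of c-JunDN to DR includes 1. Macrophage markers summed to 185 CPM with c-JunDN and 85.6 CPM with DR, 5 of 8 measured called higher; their part was not tested. With Jdp2, none of 39 was called in either direction, where 5.81% of all genes were higher and 6.32% lower. The nearest to a call were Smarca2, at 172 CPM with Jdp2 and 93.8 CPM with DR, and Cbx2, at 4.50 CPM with Jdp2 and 9.19 CPM with DR.

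With Oct4 in MEF, again none of 39 was called, where 11.5% of all genes were higher and 10.1% lower. The member median was -0.16 and that of all genes 0.01. Rcor1, at 81.4 CPM with Oct4 and 42.6 CPM with DR, and Suv39h2, at 8.99 CPM with Oct4 and 4.35 CPM with DR, had the highest changes, and Cbx2 and Ehmt1 the lowest. On TPM, Rcor1 had 35.5 with Oct4 and 34.6 with DR. There, 2 members were higher (Kdm2b and Suv39h2) and none lower, where 12.8% of all genes were higher and 10.2% lower. The Oct4 library was deposited on Ensembl genes and the others on RefSeq-based names, so differences in gene models and the factor cannot be told apart. Macrophage markers summed to 301 CPM with Oct4 and 85.6 CPM with DR, all 10 called higher, and fibroblast markers summed to 22690 CPM with Oct4 and 47560 CPM with DR, 8 of 10 called lower; the part of either was not tested.

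The choice of control matters for the MEF libraries. MEF with DR differed from WT MEF in Ring1, which was higher (18.9 CPM with DR, 8.90 CPM in WT MEF), and Suz12, which was lower (41.1 CPM with DR, 88.6 CPM in WT MEF), of 38 measured (Suz12 was not called with total-count scaling), where 9.56% of all genes were higher and 10.4% lower. Set against WT MEF, c-Jun left no member higher and 1 lower (Bmi1), where 11.0% of all genes were higher and 13.7% lower. c-JunDN left none higher and 2 lower (Rcor2 and Smarcc1), beside 10.6% higher and 10.9% lower over all genes. Jdp2 gave 2 higher (Cbx7 and Smarca2) and 3 lower (Cbx2, Smarcc1 and Suv39h1), beside 11.9% higher and 14.5% lower over all genes. Oct4 gave none higher and 7 lower (Suz12, Rbbp7, Cbx2, Chd4, Smarcc1, Kdm5b and Ehmt1), beside 14.4% higher and 14.8% lower over all genes. Smarcc1 was called in 3 of the 4 against WT MEF. It had 244 CPM with c-Jun, 129 CPM with c-JunDN, 118 CPM with Jdp2, 112 CPM with Oct4, 137 CPM with DR and 274 CPM in WT MEF. Rcor2 was the only member lower with c-JunDN against both controls.

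In KSM cells few members differed from KSM with DR. With Oct4, 1 of 41 was higher and none lower, where 4.65% of all genes were higher and 6.67% lower. The gene was Rnf2, at 60.7 CPM with Oct4 against 29.4 CPM with DR (2.06-fold, interval 1.59 to 2.70), and it was not called with DESeq2 size factors, total-count scaling or TPM. Suz12 came next, at 193 CPM with Oct4 and 108 CPM with DR. The member median was 0.25 beside 0.07 for all genes, and the cell cycle median was 0.39. With c-JunDN, none of 41 was higher and 1 was lower, Ring1, at 7.54 CPM with c-JunDN and 16.9 CPM with DR, where 1.81% of all genes were higher and 1.62% lower. With Jdp2, none was called in either direction, where 2.68% of all genes were higher and 1.31% lower, and the members' changes ran from -0.42 to 0.60. Ring1 was at or below 18.9 CPM in all 13 libraries, so its calls rest on few counts, 24 against 46 in this case.

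**Figure D4:**
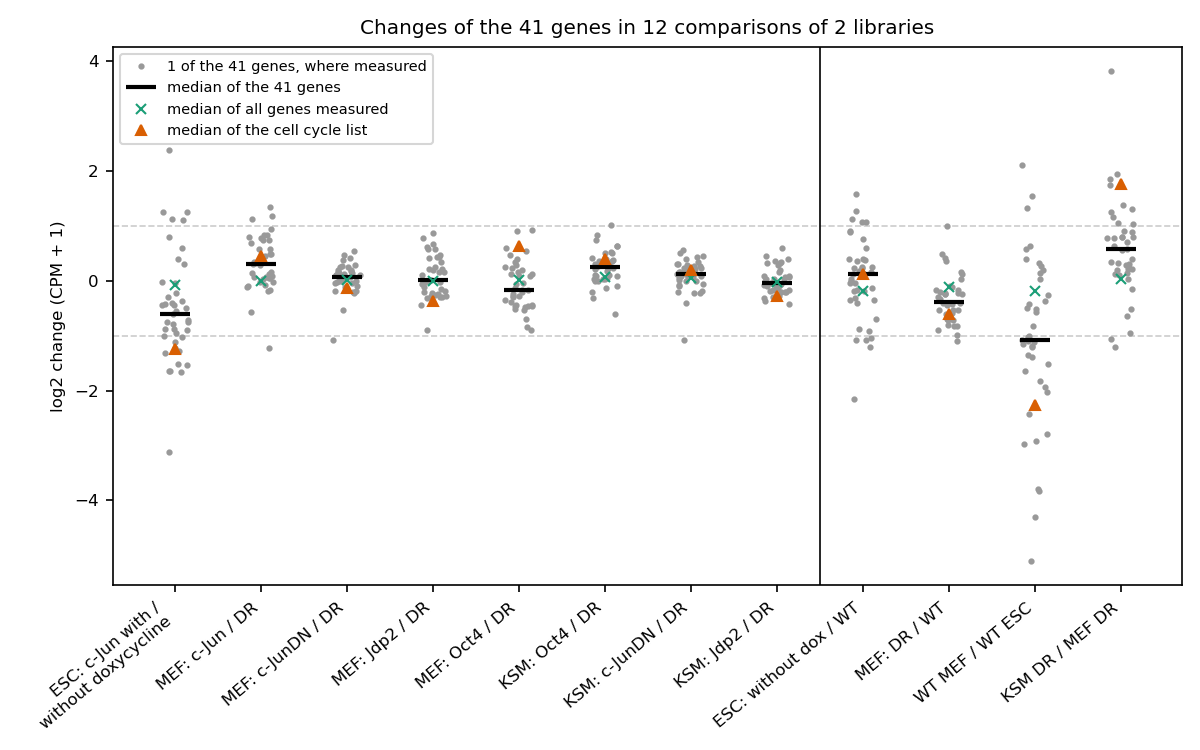
Log2 changes (CPM plus 1) of the 41 genes in 8 comparisons with a matched control and 4 others to the right of the line, each between 2 libraries; grey points are genes measured, black bars their median, crosses the median of all genes measured and triangles the median of the cell cycle list, with dashed lines at 2-fold. The member medians lie at -0.60 in induced ESC, -1.08 for WT MEF over WT ESC and 0.57 for KSM over MEF, and the cell cycle medians lie further out in each.

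Several members form pairs of related genes, and the balance of each pair was read from TPM as the share of 1 gene in the sum of both. The MEF Oct4 library is left out because its lengths come from other gene models. Rcor1 made up 49.5% of the Rcor1 and Rcor2 sum in induced ESC, 4.75% in uninduced ESC and 20.3% in WT ESC. It made up 69.6% to 92.9% in MEF and 22.0% to 34.0% in KSM cells. These ranges of single libraries did not overlap, and such gaps were not counted over other gene pairs in the genome. The share in KSM cells lay between those of WT ESC and induced ESC.

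Smarca2 made up 7.83% of the Smarca2 and Smarca4 sum in induced ESC, 1.05% in uninduced ESC and 4.22% in WT ESC. In MEF it made up 25.8% to 59.6%, the top value with Jdp2, and in KSM cells 14.8% to 24.9%. Smarcc2 made up 24.8% of the Smarcc2 and Smarcc1 sum in induced ESC, 7.60% in uninduced ESC and 13.2% in WT ESC, 45.1% to 67.4% in MEF and 24.4% to 31.2% in KSM. The MEF libraries were the highest for both pairs, and induced ESC lay below the KSM range for Smarca2 and within it for Smarcc2. Suv39h2 made up 12.7% of the Suv39h sum in induced ESC, 47.3% in uninduced ESC and 55.1% in WT ESC, and 7.97% to 20.1% in the MEF and KSM libraries. Induced ESC lay within the MEF range of 7.97% to 13.2% for this pair.

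**Figure D5:**
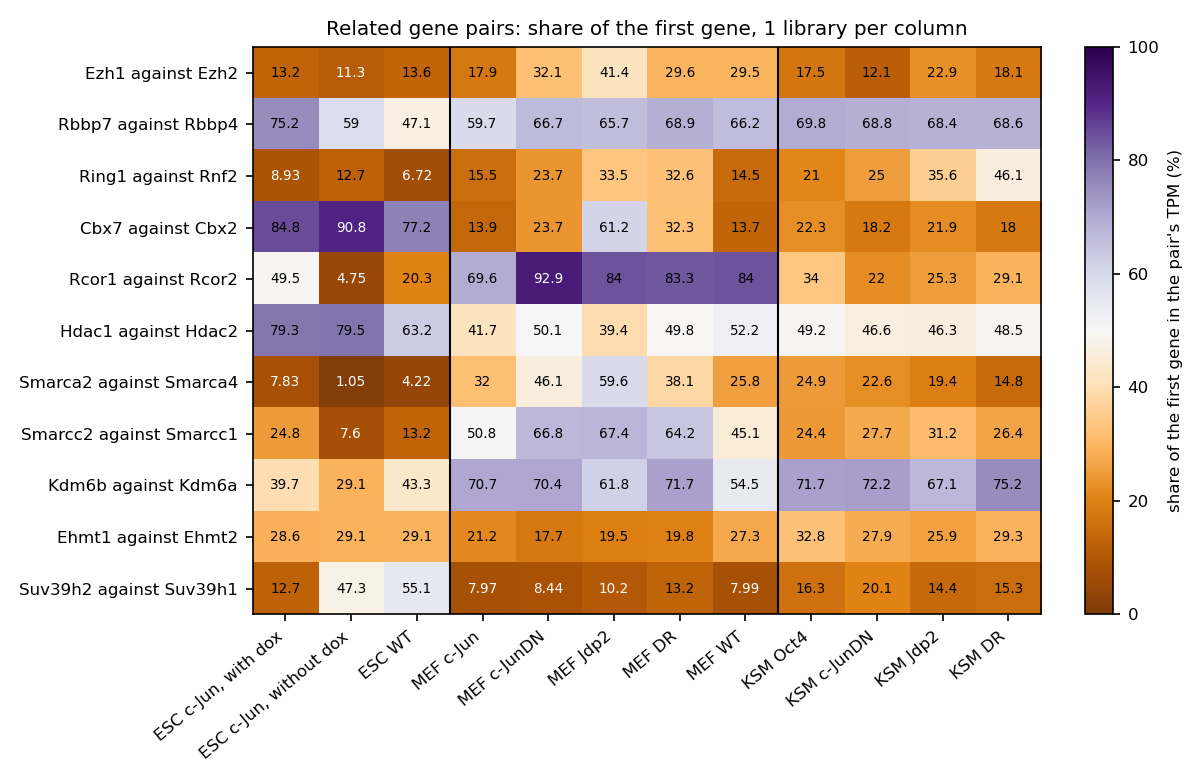
Share of the first-named gene in the summed TPM of a pair, in percent, for 11 pairs of related genes (rows) in 12 libraries (columns, 1 library each; lines part ESC, MEF and KSM). The Rcor1 and Suv39h2 rows differ most between induced and uninduced ESC, at 49.5% against 4.75% and 12.7% against 47.3%.

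The other 7 pairs varied within ESC to different degrees. Rbbp7 made up 75.2% of the Rbbp7 and Rbbp4 sum in induced ESC, 59.0% in uninduced ESC and 47.1% in WT ESC, and 59.7% to 69.8% in the MEF and KSM libraries. Cbx7 made up 84.8% of the Cbx7 and Cbx2 sum in induced ESC, 90.8% in uninduced ESC and 77.2% in WT ESC. Its share was 13.7% (WT) to 61.25% (Jdp2) in MEF and 18.0% to 22.3% in KSM cells. In MEF these shares rest on low levels, 0.991 to 4.44 TPM for Cbx7 and 2.81 to 9.45 TPM for Cbx2. Ezh1 made up 13.2% of the Ezh sum in induced ESC, 11.3% in uninduced ESC and 13.6% in WT ESC, with both genes lower in induced cells. It was 29.5% in WT MEF. Hdac1 made up 79.3% of the Hdac1 and Hdac2 sum in induced ESC, 79.5% in uninduced ESC and 63.2% in WT ESC, and Ehmt1 made up 28.6% of the Ehmt sum in induced ESC, 29.1% in uninduced ESC and 29.1% in WT ESC. Kdm6b made up 39.7% of the Kdm6 sum in induced ESC, 29.1% in uninduced ESC and 43.3% in WT ESC, and 54.5% to 75.2% in MEF and KSM libraries. Ring1 stayed the minor ligase, at 6.72% to 46.1% of the Ring1 and Rnf2 sum.

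Chromatin genes outside the 41 were read from a list of 115. In induced ESC, 107 were measured, 19 were lower and 16 higher, with a median of -0.27. Over all genes, 18.9% were lower and 21.5% higher, with a median of -0.07. Among the largest changes were those of Phc1, a polyhomeotic subunit of PRC1, at 96.9 CPM with doxycycline and 679 CPM without it, and the deacetylase Hdac7, at 23.0 CPM with doxycycline and 3.16 CPM without it. In WT MEF against WT ESC, 33 of 111 were lower and 11 higher, where 29.4% of all genes were lower and 24.3% higher. The largest changes were those of Epop and Mtf2, accessory subunits of PRC2, and the remodeller Chd7. Epop had 4.82 CPM in WT MEF and 122 CPM in WT ESC. It had 60.4 CPM in KSM with DR and 1.93 CPM in MEF with DR. In KSM against MEF, 17 of 110 were higher and 15 lower, where 18.1% of all genes were higher and 20.1% lower.

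In MEF, Hdac9, a class IIa deacetylase, stood at 37.0 CPM with c-Jun, at 20.9 CPM with c-JunDN and at 2.90 CPM with DR. Chd7 had 31.0 CPM with Oct4 and 15.0 CPM with c-Jun, against 2.42 CPM with DR. Of the list, 5 of 110 were higher and 4 lower with c-Jun, where 7.75% of all genes were higher and 9.54% lower. With c-JunDN, 1 of 109 was higher and none lower, beside 3.25% higher and 2.71% lower over all genes. With Jdp2, 2 of 108 were higher and 1 lower, beside 5.81% higher and 6.32% lower over all genes. With Oct4, 2 of 106 were higher and 5 lower, beside 11.5% higher and 10.1% lower over all genes. In KSM, 4 of 110 were higher and 1 lower with Oct4, where 4.65% of all genes were higher and 6.67% lower. None of 109 was called with c-JunDN, beside 1.81% higher and 1.62% lower over all genes. With Jdp2, none of 109 was higher and 1 was lower, beside 2.68% higher and 1.31% lower over all genes.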

How the data were processed

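Libraries were prepared with a TruSeq kit from Trizol-extracted RNA, per the labels' protocols. The submitters' processing notes name Bowtie2 2.2.3, RSEM 1.1.21 and the mm9 build. The values used are the expected counts deposited per gene, rounded here, and the fraction of transcripts deposited by the authors for 12 libraries, scaled here to TPM. The MEF Oct4 library has TPM deposited by the authors on Ensembl genes. It was matched on 19676 shared names, 1712 of them through a synonym, which hold 96.96% of its counts and 94.03% of those of the DR library. Depth ran from 1838855 to 21415021 counts per library, the lowest being MEF Oct4, counted over the shared names only. No 2 of the other 12 libraries had the same counts throughout.

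Counts were scaled with TMM in edgeR 4.0.16 (R 4.3.3), and the results were computed in Python 3.11.15. Changes are log2 ratios of CPM plus 1, for genes with at least 5 CPM in 1 of 2 libraries, called at 2-fold. Intervals are exact conditional binomial 95% intervals of the count ratio and cover counting error only. Alternatives were DESeq2 1.42.0 size factors, total counts, TPM, other filters, another pseudocount and the WT library as control. All 41 genes are named. For genes called in 1 or more of the 8 matched comparisons with an interval that excludes 1, the values in every library of that comparison are given; other members are given by level, fold or range, and up to 3 other chromatin genes per comparison are named; 1 gene that this rule names is not reported here. The genes, lists, pairs and thresholds were chosen with earlier results of these data known. The peak lists, deposited on mm9, were not used here. Hdac1 has an annotated pseudogene, so its counts may be split between copies.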

Additional observations from a re-analysis of the deposited data

Results flagged for a closer look

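Rcor2 differed between induced ESC and MEF with c-Jun. Its log2 change was -3.11 in ESC with doxycycline against without, and 1.13 in MEF with c-Jun against DR, a difference of -4.24 between the changes. Against the wild-type libraries the changes were -1.84 in ESC and 0.89 in MEF, the second not called, so the size of the gap depends on the control. It was listed because the single libraries moved in opposite directions. The difference was not tested, since each side is 1 library.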

How the results depend on the processing

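No paired analysis was possible because each group is 1 library, and no library could be left out for the same reason. Of 154 counts of members called under an alternative, 132 stayed within 1.5 times the value reported and none of the single-gene changes turned its direction. Of 491 changes of single genes and pairs, 98 lay outside the counting error of the value reported. These include Cbx7 in WT MEF over WT ESC with other filters, where the value was unchanged, since the interval leaves out the pseudocount. A count that stayed can hold other genes. Against WT ESC, induced ESC had 4 members higher, and 1 of them was among the 5 reported. The exceptions among the counts follow, and their cause was not tested unless fewer genes were measured. On TPM, induced ESC had 6 members lower (12 on TMM), MEF with Jdp2 had 1 higher, MEF with Oct4 2 higher, KSM with Oct4 0 higher and the uninduced line 2 higher than WT ESC. With DESeq2 size factors KSM with Oct4 had 0 higher and the uninduced line 2 lower. With total counts KSM with Oct4 had 0 higher, MEF with DR 0 lower than WT MEF and KSM 1 lower than MEF. With at least 20 CPM, fewer genes were measured: c-Jun in MEF had 0 lower, c-JunDN in MEF 0 lower, c-JunDN in KSM 0 lower and DR 0 higher than WT MEF. With a pseudocount of 0.1, Jdp2 in MEF had 1 lower and Oct4 in MEF 1 higher and 1 lower. Against WT MEF, c-Jun had 0 higher, c-JunDN 2 lower, Jdp2 2 higher and 3 lower, and Oct4 7 lower. The median of all genes moved by 0.19 (induced ESC) and 0.35 (MEF DR over WT) with total counts, by -0.25 for WT MEF over WT ESC, and by 0.15 (uninduced line) and 0.13 (WT MEF over WT ESC) with DESeq2 size factors. On TPM it moved by 0.12 for WT MEF over WT ESC, by 0.11 for Jdp2 in KSM, and by -0.11 for both KSM over MEF and the uninduced line. Low counts, such as 13 for Rcor2 in MEF with DR, limit what these libraries can show.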
